A study of Mus musculus with 12 samples.

Results

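The genes examined here are 6 that act on itaconate, arginine and tryptophan: *Acod1*, *Ass1*, *Slc7a2*, *Odc1*, *Ido1* and *Kmo*. They were chosen by name, with earlier results of these data known and because *Acod1* has one of the largest rises after LPS, so the LPS differences of all 6 are given as a description without p-values, and the number past the calling threshold is counted without being read. All 6 were rows of the count table, which holds 52550 genes, of which 21950 are protein-coding. After the filter on low counts 15885 protein-coding genes were tested, and 5 of the 6 were among them. *Ido1* was too low. Of the 6, *Slc7a2* is a membrane transporter and the others are enzymes.

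The study asked how adrenomedullin (*Adm*), a vasoactive peptide hormone, bears on lung injury in newborn mice given bacterial lipopolysaccharide (LPS). RNA of whole lungs was sequenced in 12 libraries, each of 1 mouse on the C57Bl/6J background taken on postnatal day 5, with 3 in each of 4 groups. The WT PBS (replicates 3, 4 and 5) and *Adm*+/- PBS (replicates 6, 7 and 8) mice received saline, and the WT LPS (replicates 9, 10 and 11) and *Adm*+/- LPS (replicates 1, 2 and 12) mice received *E. coli* LPS at 6 mg/kg into the peritoneum, once a day for 3 days from postnatal day 3, with the lungs taken 6 h after the last dose. The *Adm*+/- mice keep 1 functional copy of the gene, and came from mice on a 129/SvEv background that were crossed back to C57BL/6J. Whether littermates were used is not given by the labels, so p-values measure the spread between these libraries.

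Total counts per library ranged from 22382535 to 38062873. Levels are given in CPM (counts scaled to library size, with TMM factors), and, where genes are compared with each other, in CPM per kilobase of exon. *Adm* itself was 5.21 ± 1.66 CPM in WT PBS and 3.69 ± 0.855 CPM in *Adm*+/- PBS lungs (SD, n = 3), and 6.79 ± 2.03 CPM in WT LPS against 4.65 ± 1.42 CPM in *Adm*+/- LPS lungs, with overlapping ranges in both pairs (adjusted p = 0.999 and 0.480, edgeR). The lung markers *Sftpc*, *Sftpb*, *Scgb1a1*, *Ager* and *Pecam1* summed to between 12347 and 15957 CPM in every library. Several libraries stood apart. Marker genes of skeletal muscle summed to 1012 to 2518 CPM in the 3 WT LPS libraries and to 22.5 to 63.8 CPM in the other 9, and marker genes of squamous epithelium summed to 3496 and 1785 CPM in WT LPS replicates 9 and 11 and to at most 54.6 CPM elsewhere. In WT PBS replicate 5 and *Adm*+/- PBS replicate 6, protein-coding genes took 77.8% and 80.1% of the counts, against 84.3% to 87.6% in the other libraries, and fibroblast markers summed to 46968 and 31525 CPM against 14334 to 20732 CPM. The sums of type II pneumocyte markers (13462 to 17680 CPM), endothelial markers (4041 to 5097 CPM) and NK and T cell markers (18.4 to 29.7 CPM) spanned narrower ranges over the 12 libraries. A narrow sum does not mean that its genes were unchanged. Of 13 tested NK and T cell genes, 3 were called higher and 0 lower after LPS in WT mice. In *Adm*+/- mice 4 were called higher and 3 lower. Between the genotypes under LPS 0 of the 13 were called.

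Itaconate is made from the citric acid cycle intermediate cis-aconitate by the enzyme that *Acod1* (also called *Irg1*) encodes. Activated macrophages and neutrophils switch this gene on, and itaconate slows succinate dehydrogenase and modifies Keap1, the inhibitor of the antioxidant regulator Nrf2. Arginine enters cells through cationic transporters such as the product of *Slc7a2*. It is used by nitric oxide synthases to make nitric oxide and citrulline, and is also a source of ornithine, from which ornithine decarboxylase (*Odc1*) starts polyamine synthesis. *Ass1* returns citrulline towards arginine. Tryptophan is opened by indoleamine 2,3-dioxygenase (*Ido1*), and kynurenine is hydroxylated by *Kmo*. Many of these enzymes are used by immune cells to set the supply of an amino acid in inflamed tissue. In whole lung, a higher count can come from more cells of a type or from more RNA per cell, and these cannot be told apart.

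Sequence before the transcription start was read for the members with an entry in the RefSeq promoter table of build GRCm38.p6, which was 4 of 6 (*Acod1*, *Ass1*, *Kmo* and *Odc1*). That of *Kmo* lies inside the gene as Gencode draws it and is not described. The other 3 are shown because their values after LPS were unlike, as described further on: *Acod1* went from near 0 to among the most abundant members, *Odc1* was highest in *Adm*+/- LPS lungs, and *Ass1* differed by little. For these 3 the Gencode gene starts 35, 79 and 63 bases before the RefSeq start (*Acod1*, *Odc1* and *Ass1*), so of the 250 bases before the RefSeq start only those before the Gencode start are printed. They are chr14:103046762-103046976 for *Acod1*, chr12:17544623-17544793 for *Odc1* and chr2:31470020-31470206 for *Ass1*, all on the plus strand and written 5′ to 3′. Capitals mark matches to the letters searched.
Acod1: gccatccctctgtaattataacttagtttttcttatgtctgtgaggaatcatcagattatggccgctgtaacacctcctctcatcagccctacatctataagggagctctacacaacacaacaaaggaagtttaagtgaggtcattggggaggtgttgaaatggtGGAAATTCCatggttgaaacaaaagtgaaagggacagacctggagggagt
Odc1: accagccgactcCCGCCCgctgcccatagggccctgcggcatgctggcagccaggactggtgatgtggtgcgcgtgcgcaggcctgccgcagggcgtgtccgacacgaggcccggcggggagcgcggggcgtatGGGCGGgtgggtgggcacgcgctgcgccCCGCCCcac
Ass1: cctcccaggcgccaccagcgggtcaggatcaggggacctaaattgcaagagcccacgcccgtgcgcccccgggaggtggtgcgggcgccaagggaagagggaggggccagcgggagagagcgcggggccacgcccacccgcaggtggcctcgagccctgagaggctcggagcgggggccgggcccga

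The letters were chosen after the sequences had been seen and were searched on both strands in all 250 bases before each of 32851 RefSeq starts, with positions counted back from that start. *Acod1* held 1 match to the κB-like letters GGANNNTCC, GGAAATTCC, whose first base was at -85, and a TATA box, TATAAA, at -28. These letters were present before 7.27% and 12.4% of all starts. *Odc1* held 4 GC boxes, GGGCGG on the plus strand at -116 and its complement on the other strand at -238, -88 and -15, and *Ass1* held 1 at -63 together with the E-box CACGTG at -36. A GC box was present before 32.7% of all starts and the E-box before 6.02%. The matches at -28 in *Acod1*, -15 in *Odc1* and -63 and -36 in *Ass1* lie in the gene as Gencode draws it and are not among the printed bases. The letters TGANTCA (AP-1), TTCNNNGAA (STAT) and TTGCNNAA (C/EBP), present before 6.75%, 7.02% and 9.56% of all starts, were in none of the 3. No match of these strings overlapped another. The 250 bases of *Acod1* were 44.4% G and C, and those of *Ass1* and *Odc1* were 75.6% and 80.0%. These matches are descriptions of the letters only.

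*Acod1* (ENSMUSG00000022126, chr14:103046977-103056573, plus strand, mm10) was almost silent in PBS lungs. Its counts were 3, 24 and 0 in WT PBS replicates 3, 4 and 5, and 0, 15 and 1 in *Adm*+/- PBS replicates 6, 7 and 8, that is at most 1.16 CPM. A count of 0 in the shallower of the 2 libraries allows up to 0.185 CPM. After LPS it was 115, 70.6 and 18.9 CPM in WT replicates 9, 10 and 11, and 104, 135 and 91.2 CPM in *Adm*+/- replicates 1, 2 and 12. Every LPS library was above every PBS library, with the lowest LPS value in WT replicate 11. The fitted log2 difference was 7.29 (SE 0.92) in WT mice, the 35th highest of the 15885 tested genes, and 8.99 (SE 0.99) in *Adm*+/- mice, the 3rd highest. The fitted size rests on a few PBS reads: without WT PBS replicate 4 it was 9.81 in WT mice, and without *Adm*+/- PBS replicate 7 it was 11.95 in *Adm*+/- mice.

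Under LPS, *Acod1* was 68.3 ± 48.2 CPM in WT and 110 ± 22.6 CPM in *Adm*+/- lungs (SD, n = 3), with overlapping ranges. The log2 difference between the genotypes was 0.69 with a 95% interval from -0.64 to 2.02, and it is given without a test. The difference between the 2 LPS responses was 1.70 (SE 1.58) and ran from -0.83 without WT PBS replicate 4 to 4.67 without *Adm*+/- PBS replicate 7, so neither its sign nor its size was fixed by these libraries. Neutrophil markers were high in the same libraries. The 15 genes of that list (*Lcn2*, *S100a9* and *S100a8* being the most abundant) summed to 81.0 to 254 CPM in WT PBS, 73.6 to 96.7 CPM in *Adm*+/- PBS, 2199 to 4005 CPM in WT LPS and 2927 to 3281 CPM in *Adm*+/- LPS lungs. The highest PBS library on both measures was WT PBS replicate 4. Within the LPS libraries the orders differed. WT LPS replicate 11 was lowest on both, but the other 14 genes without *Lcn2* summed to 1875 CPM there, above WT LPS replicate 10 (1735 CPM) and *Adm*+/- LPS replicates 1 (1649 CPM) and 2 (1740 CPM), and *Adm*+/- LPS replicate 2, the highest in *Acod1*, had the lowest neutrophil sum of its group. Of the 14 neutrophil genes tested, 13 were called higher after LPS in WT and 14 in *Adm*+/- mice, where 10.5% and 12.8% of all tested genes were. The sum of the 14 monocyte and macrophage markers moved less, from 1147 to 1327 CPM in WT PBS to 1752 to 2434 CPM in WT LPS, and from 1069 to 1308 CPM to 1968 to 2413 CPM in *Adm*+/- lungs. Most of it was *Lyz2*, at 1053 CPM in WT PBS replicate 3 and 1621 CPM in WT LPS replicate 11. By gene, 12 were called higher in WT mice, and 11 higher and 1 lower in *Adm*+/- mice. The shares of all tested genes called higher were the same 10.5% and 12.8%, with 12.2% lower in *Adm*+/- mice. The highest sum of the 12 libraries, 2434 CPM, was that of WT LPS replicate 11, the lowest LPS library in *Acod1*. *Csf1r* was also highest there (203 CPM), while *Cd14*, named after its values were seen, had its lowest LPS value there (36.8 CPM). The alveolar macrophage list went from 102 to 147 CPM over all PBS libraries to 245 to 480 CPM over all LPS libraries. The part of these cells in the *Acod1* counts was not tested.

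Over the 12 libraries, the tested genes whose log2 CPM followed *Acod1* most closely were *Clip4* (Pearson r = 0.995), *Fpr2* (0.993), *Ms4a6d* (0.991), *Adora3* (0.991) and *Msr1* (0.991). These r values have no p, since the 12 points fall into PBS and LPS clusters. In CPM, *Fpr2* went from a mean of 5.46 in WT PBS to 41.8 in WT LPS lungs, and *Msr1* from 4.98 to 42.5. Both are receptors of myeloid cells.

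**Figure D1:**
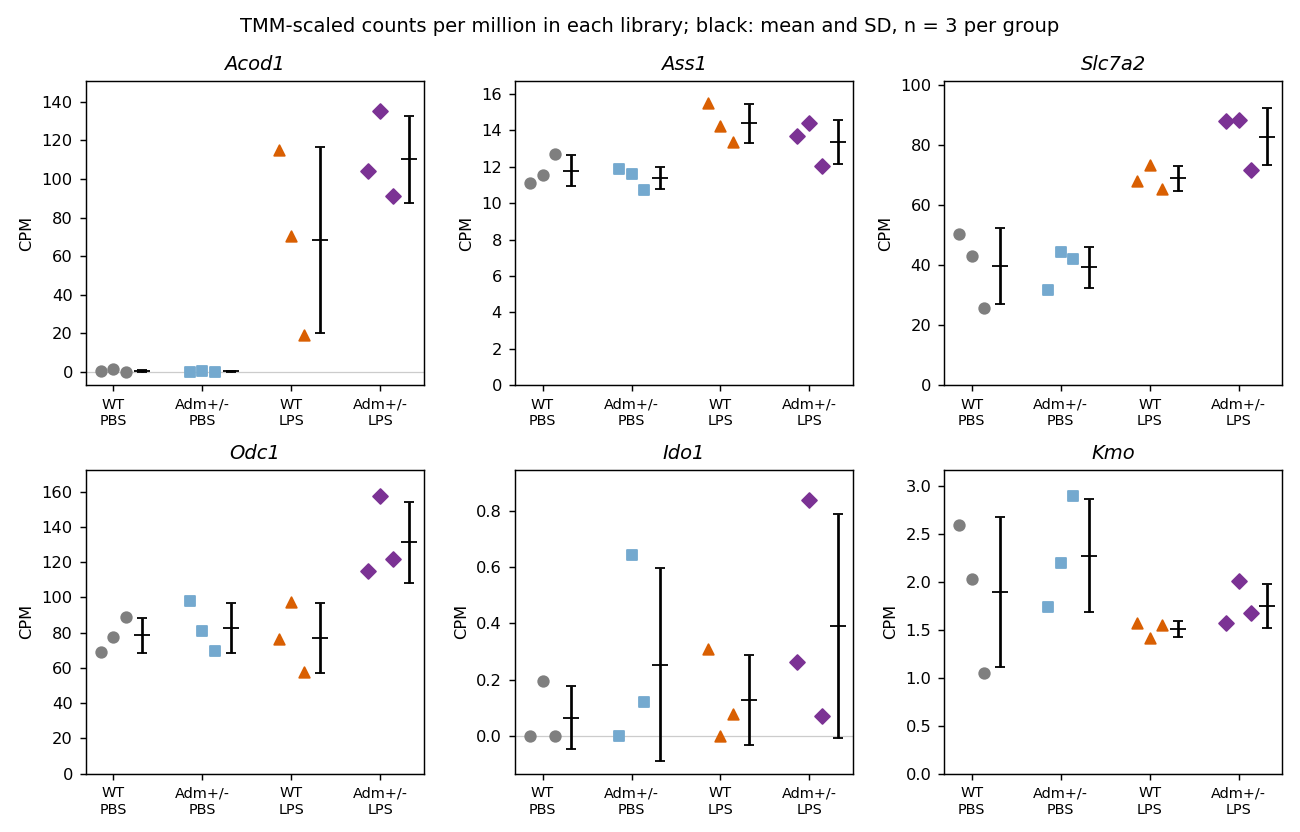
Each panel plots TMM-scaled CPM of 1 member (linear axis) in the 12 libraries, with 3 points per group and the mean and SD in black at their right. *Acod1* is at or below 1.16 CPM in all PBS libraries and at 18.9 to 135 CPM after LPS, *Slc7a2* is above every PBS library in every LPS library, and *Odc1* is highest in the *Adm*+/- LPS lungs.

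*Slc7a2* (ENSMUSG00000031596, chr8:40862396-40922308, plus strand), which encodes the cationic amino acid transporter that carries arginine, was already well expressed in PBS lungs. It was 50.4, 43 and 25.8 CPM in the WT PBS libraries and 31.6, 44.3 and 41.9 CPM in the *Adm*+/- PBS libraries, with the lowest value of each group in the library with the lowest protein-coding share. After LPS it was 68.0, 73.5 and 65.5 CPM in WT and 88.2, 88.5 and 71.9 CPM in *Adm*+/- lungs, above every PBS library. The log2 difference was 0.79 (SE 0.21) in WT and 1.08 (SE 0.21) in *Adm*+/- mice, and in WT mice it was 0.56 without WT PBS replicate 5 and *Adm*+/- PBS replicate 6. *Ass1* (ENSMUSG00000076441, chr2:31470207-31520672, plus strand), argininosuccinate synthase, was 10.7 to 12.7 CPM in the 6 PBS libraries and 12.0 to 15.5 CPM in the 6 LPS libraries. Within each genotype the LPS values lay above the PBS values, but the log2 differences were small, at 0.29 (SE 0.12) and 0.23 (SE 0.12). *Slc7a2* overlaps *Gm26584* on the other strand, as *Kmo* does *Fh1*, and the strand option of the counting is not given in the sources used here, so reads of these neighbours may be shared. *Odc1* overlaps *Gm22748* on its own strand, where the strand option does not separate reads.

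*Odc1* (ENSMUSG00000011179, chr12:17544794-17551505, plus strand), the first enzyme of polyamine synthesis, was the most abundant member in PBS lungs. It was 69.2, 77.7 and 89.1 CPM in WT PBS and 98.0, 80.8 and 69.5 CPM in *Adm*+/- PBS lungs. WT LPS lungs had 76.4, 97.3 and 57.5 CPM, overlapping the PBS lungs with replicate 11 below all of them, while *Adm*+/- LPS lungs had 115, 158 and 122 CPM and lay above all the other libraries. The log2 difference after LPS was -0.03 (SE 0.20) in WT and 0.67 (SE 0.20) in *Adm*+/- mice. The WT value ran from -0.23 to 0.14 when 1 library was left out, and was 0.31 against WT LPS replicate 10 alone. The nearest patterns were those of *Prss12* (r = 0.950), *Hcn4* (0.947) and *Nufip1* (0.943), and *Hcn4*, a pacemaker channel of the heart's conduction system, had a mean of 9.17 CPM in *Adm*+/- LPS lungs against 3.74 to 4.31 CPM in the other groups.

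The tryptophan enzymes were scarce. *Ido1* (ENSMUSG00000031551, chr8:24584136-24597009, minus strand) had 0, 4 and 0 counts in WT PBS, 0, 19 and 3 in *Adm*+/- PBS, 10, 0 and 2 in WT LPS and 7, 20 and 2 in *Adm*+/- LPS lungs. The groups overlapped, the 2 highest libraries belonged to a PBS and an LPS group, and the gene did not pass the filter on low counts. Without that filter its log2 difference between the genotypes was 2.02 under PBS and 1.40 under LPS, neither called (adjusted p = 1 and 0.748, edgeR). *Kmo* (ENSMUSG00000039783, chr1:175620381-175662116, plus strand), which makes 3-hydroxykynurenine, was 2.60, 2.04 and 1.05 CPM in WT PBS, 1.74, 2.20 and 2.90 CPM in *Adm*+/- PBS, 1.57, 1.41 and 1.55 CPM in WT LPS and 1.57, 2.01 and 1.67 CPM in *Adm*+/- LPS lungs. LPS and PBS ranges of *Kmo* overlapped within each genotype, with log2 differences after LPS of -0.35 (SE 0.31) and -0.39 (SE 0.30). The 3 patterns nearest to *Slc7a2* were *Ifitm2* (r = 0.979), *Serping1* (0.978) and *Tmod2* (0.977), those nearest to *Ass1* were *Cpne5* (0.956), *Proser2* (0.947) and *Prf1* (0.915), and those nearest to *Kmo* were *Flrt3* (0.967), *Ubqln2* (0.959) and *Ift80* (0.958).

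The order of the members on the CPM per kilobase scale changed with LPS. In WT PBS lungs *Odc1* led at 23.1, followed by *Ass1* at 4.89 and *Slc7a2* at 4.35, whose ranges overlapped, then *Kmo* at 0.402. *Acod1* at 0.163 overlapped both *Kmo* above it and *Ido1*, last at 0.0355. *Adm*+/- PBS lungs had the same order down to *Kmo*, with *Odc1* at 24.3. In WT LPS lungs *Acod1* at 26.0 and *Odc1* at 22.6 overlapped at the top, and *Slc7a2* at 7.55, *Ass1* at 5.96, *Kmo* at 0.320 and *Ido1* at 0.0708 followed without overlap between neighbours. In *Adm*+/- LPS lungs *Acod1* at 42 and *Odc1* at 38.6 overlapped, and below them *Slc7a2* at 9.07, *Ass1* at 5.54 and *Kmo* at 0.371 followed without overlap between neighbours. *Kmo* overlapped *Ido1*, at 0.214.

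A gene was called at a Benjamini-Hochberg adjusted p below 0.05 in edgeR's quasi-likelihood test with an absolute log2 fold change above 0.5. In the LPS comparison of WT mice 2 of the 5 tested members were called, both higher (*Acod1* and *Slc7a2*), where 17.6% of all tested genes were called, 10.5% higher and 7.09% lower. In *Adm*+/- mice 3 of 5 were called, all higher (*Acod1*, *Slc7a2* and *Odc1*), where 25.0% of all tested genes were called, 12.8% higher and 12.2% lower. LPS and PBS libraries did not overlap for 3 members in WT and 4 in *Adm*+/- mice, against 36.2% and 53.7% of all tested genes. Since the members were selected on this comparison, nothing is read from these counts. Without WT LPS replicates 9 and 11, which leaves 1 WT LPS library that is assumed to vary like the other groups, the number called in WT mice was 1 (*Acod1*), the call of *Slc7a2* in WT mice being lost at a log2 difference of 0.88. It was also lost without WT LPS replicate 9 (0.80) or 10 (0.74), with glmTreat and with the 6 libraries alone (0.79), and the call of *Odc1* in *Adm*+/- mice was lost without *Adm*+/- PBS replicate 7 or 8 (log2 difference 0.65 and 0.55) and without *Adm*+/- LPS replicate 2 (0.51), and with glmTreat.

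**Figure D2:**
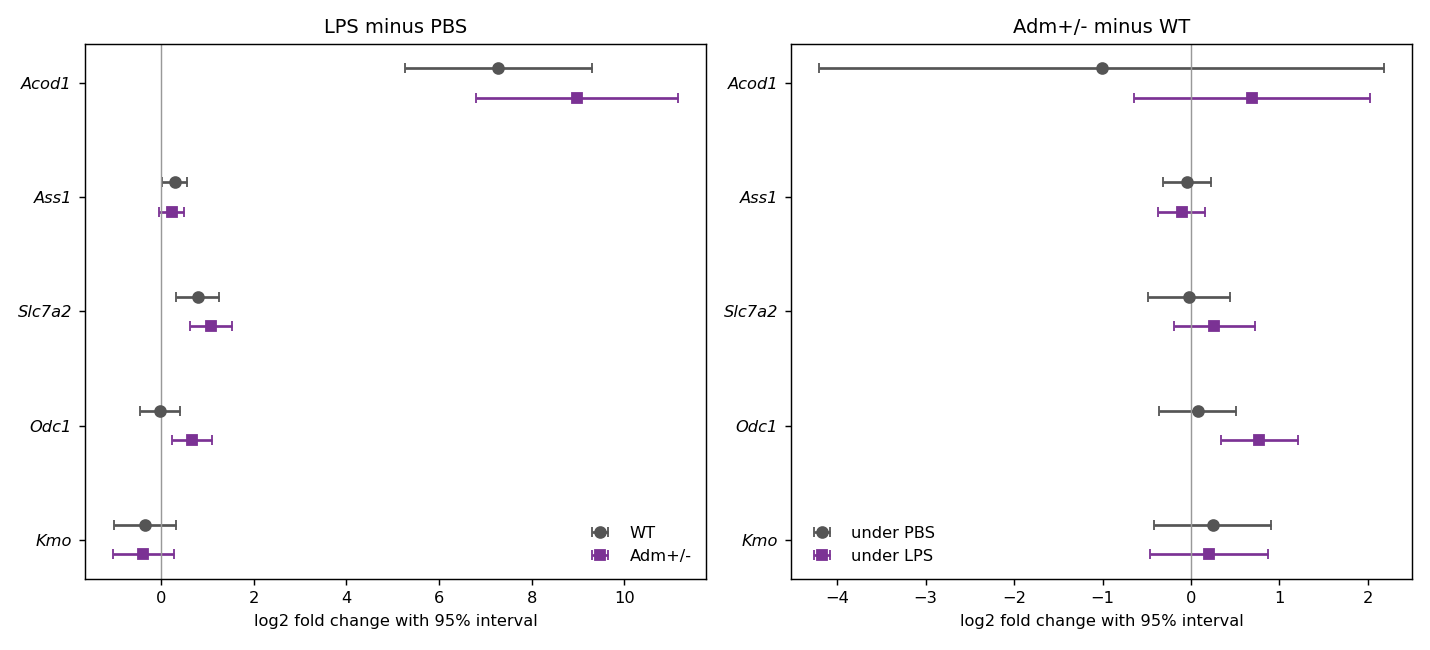
The left panel plots the log2 fold change of LPS over PBS for the 5 tested members in each genotype, and the right panel that of *Adm*+/- over WT under each treatment, all with 95% intervals from 1 edgeR fit of 12 libraries. Under LPS the interval of *Odc1* (0.33 to 1.21) on the right lies wholly above 0.

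The next question was whether the genotype changed these genes, which was tested for the members other than *Acod1*. Under PBS no difference was detected. None of the 4 was called by edgeR, limma-voom or DESeq2, and 0 of 4 had an unadjusted p below 0.05 in edgeR. Over all genes 0 were called by any of these tools, 0% of those tested, with 344 at an unadjusted p below 0.05 in edgeR. Groups did not overlap for 0 members, against 4.99% of tested genes. The log2 differences ran from -0.05 for *Ass1* (95% interval -0.32 to 0.22, the narrowest) to 0.25 for *Kmo* (-0.41 to 0.91).

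Under LPS 0 of the 4 members were called by edgeR or limma-voom and 1 by DESeq2 (*Odc1*), with 1 of 4 (*Odc1*) at an unadjusted p below 0.05 in edgeR, where edgeR called 2.05% and DESeq2 5.06% of all tested genes. For *Odc1* every *Adm*+/- LPS library exceeded every WT LPS library. Its log2 difference was 0.77 (SE 0.20, 95% interval 0.33 to 1.21), which missed the threshold in edgeR (adjusted p = 0.0728) and passed it in DESeq2 (adjusted p = 0.00893), and in edgeR without WT PBS replicate 5 (0.0470) or WT LPS replicate 10 (0.0251). Against the single WT LPS replicate 10 the *Odc1* difference was 0.43 (adjusted p = 0.985, with that library assumed to vary like the other groups). Separation of the groups is common in this comparison, found for 24.6% of tested genes. *Slc7a2* (0.26, interval -0.19 to 0.72), *Ass1* (-0.11, interval -0.37 to 0.16) and *Kmo* (0.21, interval -0.46 to 0.88) were not called.

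None of the 4 members was called for a difference in LPS response between the genotypes, by edgeR, limma-voom or DESeq2, and 1 of 4 (*Odc1*) had an unadjusted p below 0.05 in edgeR. Over all genes 0.145% were called. The values for *Odc1* (0.70, SE 0.28) and *Slc7a2* (0.28, SE 0.30) had adjusted p of 0.545 and 0.970, and those of *Ass1* and *Kmo* were -0.06 and -0.04. The 95% interval of *Slc7a2* (-0.37 to 0.93) included 0, and that of *Odc1* ran from 0.08 to 1.31.

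**Figure D3:**
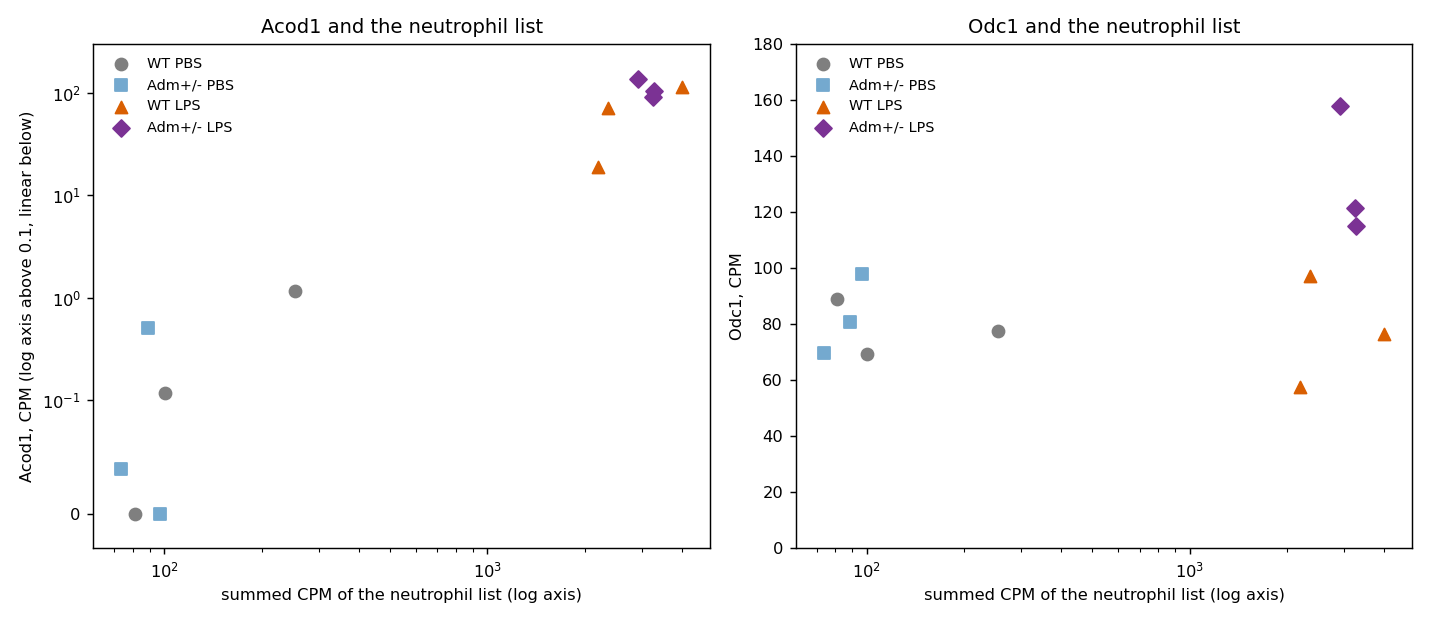
Each point is 1 library, with *Acod1* CPM on the left (log axis, linear below 0.1) and *Odc1* CPM on the right (linear axis) against the summed CPM of 15 neutrophil genes (log axis). On the left the LPS libraries sit at the upper right, WT LPS replicate 11 is the lowest of them and WT PBS replicate 4 is the highest PBS library, while on the right WT LPS lungs (57.5 to 97.3 CPM) overlap PBS lungs (69.2 to 98.0 CPM).

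The enzymes around the members were followed with 96 further genes in 6 lists, of which 92 were tested. In WT mice 17 rose and 3 fell after LPS, where 10.5% and 7.09% of all tested genes were called higher and lower, and in *Adm*+/- mice 20 rose and 5 fell, where 12.8% and 12.2% were. The 20 and 25 calls among the 92 genes were a share near that of all tested genes, 17.6% and 25.0%, so the total is no result about these genes. The median log2 difference over the 92 was 0.09 in WT and 0.05 in *Adm*+/- mice, beside 0.01 and -0.01 over all tested genes. The WT count of 20 calls was 8 without WT LPS replicate 9 alone and 9 without WT LPS replicates 9 and 11, which leaves 1 WT LPS library, assumed to vary like the other groups.

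The substrate side of itaconate held no call in edgeR. Of 20 genes of citrate, succinate and itaconate metabolism 0 were called by edgeR in either genotype, where 17.6% and 25.0% of all tested genes were called, with 2 and 5 at an unadjusted p below 0.05, 0 and 1 called by limma-voom and 0 and 1 called by DESeq2. Succinate dehydrogenase subunit *Sdha*, part of the enzyme that itaconate slows, differed by 0.00 (SE 0.08, adjusted p = 0.971) in WT and by -0.08 in *Adm*+/- mice. Citrate synthase (*Cs*) and *Idh1*, which uses isocitrate in the cytosol, had log2 differences of 0.08 and 0.25 in WT mice and of -0.06 and 0.00 in *Adm*+/- mice, none called. In *Adm*+/- mice 4 of the 20 genes had a log2 difference above 0 and 6 had every LPS library below every PBS library, beside 48.7% and 27.1% of all tested genes. Named after their values were seen, ATP citrate lyase *Acly* (-0.34, adjusted p = 0.00822) and the mitochondrial carrier *Slc25a11* (-0.32, adjusted p = 0.0293) had an adjusted p below 0.05 there within the fold limit of 0.5, with -0.16 and -0.20 in WT mice (adjusted p = 0.165 and 0.164).

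Of 10 genes of the Keap1 and Nrf2 response, 5 rose in WT and 8 in *Adm*+/- mice and none was called lower, where 10.5% and 12.8% of all tested genes were called higher, with median log2 differences of 0.51 and 0.94. The number called higher was 3 in WT and 8 in *Adm*+/- mice with limma-voom, and 5 and 8 with DESeq2. *Nqo1* (0.31, adjusted p = 0.564, and 0.37, adjusted p = 0.464) and *Keap1* (0.00 and 0.15), named after their values were seen, were called in neither genotype by edgeR. The cystine transporter *Slc7a11* was 0.927 to 3.20 CPM in PBS lungs and 50.3, 27.3 and 15.1 CPM in WT LPS and 64.3, 67.1 and 56.1 CPM in *Adm*+/- LPS lungs (log2 difference 3.85, SE 0.46, adjusted p = 0.000379 and 5.46, SE 0.49, adjusted p = 6.09e-05). Haem oxygenase *Hmox1* rose by 1.93 and 1.87 on the log2 scale and the sulfiredoxin *Srxn1* by 0.56 and 0.95. *Gclc*, the catalytic subunit of glutathione synthesis, was 231, 228 and 89.0 CPM in WT LPS and 436, 653 and 535 CPM in *Adm*+/- LPS lungs, and rose by 0.99 in WT mice, with overlapping groups, and 2.81 in *Adm*+/- mice. The difference in response was 1.82 (adjusted p = 0.234 in edgeR). The neutrophil and the monocyte and macrophage sums given above were higher in the same LPS libraries, and the part of these cells in the Keap1 and Nrf2 values was not tested.

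Of 22 tested genes of arginine supply and use, 6 rose and 1 fell in WT mice and 4 rose and 2 fell in *Adm*+/- mice, where 17.6% and 25.0% of all tested genes were called, with medians of -0.03 and 0.03. *Nos2*, the inducible nitric oxide synthase, which uses arginine, was 14.8 to 20.7 CPM in PBS lungs and 67.9, 40.4 and 22.7 CPM in WT LPS and 62.8, 83.7 and 67.4 CPM in *Adm*+/- LPS lungs. It rose by 1.27 (SE 0.30, adjusted p = 0.0135) in WT and by 2.03 (SE 0.31, adjusted p = 0.00065) in *Adm*+/- mice. *Gch1*, the first enzyme of the nitric oxide synthase cofactor tetrahydrobiopterin, rose by 1.08 and 1.94. The endothelial *Nos3* (-0.04 and 0.19) and argininosuccinate lyase *Asl* (-0.16 and -0.05), the partner of *Ass1*, were not called. Other called genes of this list are named after their values were seen. The transporter *Slc7a1* rose by 0.64 (adjusted p = 0.0237) and 1.05 (adjusted p = 0.00103). *Slc7a6* rose by 0.89 in *Adm*+/- mice (adjusted p = 0.000922) with 0.27 in WT mice (adjusted p = 0.187). *Cps1* rose by 2.05 in WT mice (adjusted p = 0.0459) with 1.01 in *Adm*+/- mice (adjusted p = 0.286). *Ddah2* fell by 1.15 (adjusted p = 0.0152) and 0.85 (adjusted p = 0.0376). *Nos1*, *Gatm* and *Gamt* are expressed in skeletal muscle or make its creatine, and the muscle list was high in all WT LPS libraries. *Nos1* was 3.24, 5.95 and 4.98 CPM there and 0.356 to 1.05 CPM in all the other libraries, and rose by 2.94 in WT mice (adjusted p = 0.000529). Its value in *Adm*+/- mice was 0.43 (adjusted p = 0.454, and 0.176 for the difference in response). *Gatm* rose by 2.28 in WT mice with 0.58 in *Adm*+/- mice (adjusted p = 0.0827), and *Gamt* fell by 1.24 on the log2 scale in *Adm*+/- mice with -0.12 in WT mice (adjusted p = 0.631). Their differences in response were not called by edgeR (adjusted p = 0.105 and 0.156).

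Of 15 tested polyamine genes, 2 were called in WT and 1 in *Adm*+/- mice, all higher, where 10.5% and 12.8% of all tested genes were called higher. *Sat1*, which acetylates polyamines for export, rose in both genotypes (0.72, adjusted p = 0.0103, and 0.86, adjusted p = 0.0023), and spermine synthase *Sms* rose in WT mice (0.70, adjusted p = 0.00213) and had 0.44 in *Adm*+/- mice (adjusted p = 0.0144), under the fold limit of 0.5. The antizyme *Oaz2*, named after its values were seen, was below its PBS range in every LPS library of both genotypes, by less than the fold limit (-0.41, adjusted p = 0.00545, and -0.35, adjusted p = 0.00771), and *Amd1* (-0.38, adjusted p = 0.0303) and *Sat2* (-0.49, adjusted p = 0.0379) had an adjusted p below 0.05 within that limit in *Adm*+/- mice, as did *Eif5a* in the other direction (0.36, adjusted p = 0.0349). Spermidine synthase *Srm* (0.09 and 0.45), the oxidase *Smox* (0.05 and 0.51), the antizyme *Oaz1* (-0.10 and -0.13) and the antizyme inhibitor *Azin1* (0.18 and 0.20) were not called.

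Tryptophan genes moved in both directions, with 3 of 19 higher and 2 lower in WT and 5 higher and 2 lower in *Adm*+/- mice, against the same 17.6% and 25.0% of all tested genes called. The large neutral amino acid transporter *Slc7a5*, which carries tryptophan and kynurenine, rose by 1.21 and 1.49, and its partner *Slc3a2* rose by 0.83 in *Adm*+/- mice with 0.25 in WT mice (adjusted p = 0.170), a difference in response that was not called (adjusted p = 0.401). *Tdo2*, tryptophan 2,3-dioxygenase, was 0.185 to 2.28 CPM in PBS lungs and 2.54 to 4.10 CPM in LPS lungs, and was called in *Adm*+/- mice (1.51, adjusted p = 0.0423) but not in WT mice (1.27, adjusted p = 0.0939). The difference between these responses was 0.24 (adjusted p = 0.996). *Tdo2* is chiefly a liver enzyme, and a list of 15 liver genes summed to 11.9 to 44.5 CPM in the PBS and 36.8 to 97.4 CPM in the LPS libraries. The part of liver RNA in the *Tdo2* values was not tested. *Qprt* rose in WT mice (1.68), from a mean of 0.266 to 0.832 CPM, with -0.11 in *Adm*+/- mice (adjusted p = 0.879, and 0.445 for the difference in response), and glutaryl-CoA dehydrogenase *Gcdh*, of the lysine and tryptophan breakdown route, fell by 0.51 and 0.62. *Ido2* (-0.43 and 0.51), *Kynu* (0.92 and 0.29) and *Haao* (0.09 and 0.04), among the steps around *Ido1* and *Kmo*, were not called. *Kyat1* and *Ddc* of the same list, named after their values were seen, were called in WT mice. *Kyat1* was higher (0.998, adjusted p = 0.0365), with overlapping groups, and *Ddc* was lower (-0.899, adjusted p = 0.03795). In *Adm*+/- lungs the mean of *Kyat1* went from 11.8 to 31.1 CPM after LPS, and that of *Ddc* from 14.99 to 6.35 CPM. For the aryl hydrocarbon receptor, which binds kynurenine, the target *Cyp1b1* rose by 2.57 and 3.49, *Tiparp* rose by 1.27 in *Adm*+/- mice with 0.85 in WT mice (adjusted p = 0.0767), and the receptor gene *Ahr* fell by 0.81 in *Adm*+/- mice with -0.43 in WT mice (adjusted p = 0.0571). The differences between these responses were not called (adjusted p = 0.973 and 0.736). Also of this list, and named after their values were seen, *Cyp1a1* and *Ahrr* were not called and had lower means after LPS. *Cyp1a1* went from 1.55 to 1.11 CPM in WT and from 1.06 to 0.616 CPM in *Adm*+/- lungs, and *Ahrr* from 0.817 to 0.756 and from 0.869 to 0.754 CPM. This list had 1 of 6 higher in WT, and 2 higher and 1 lower in *Adm*+/- mice. Of all tested genes 10.5% were called higher in WT, and 12.8% higher and 12.2% lower in *Adm*+/- mice. The list's median log2 differences were -0.07 and -0.06.

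**Figure D4:**
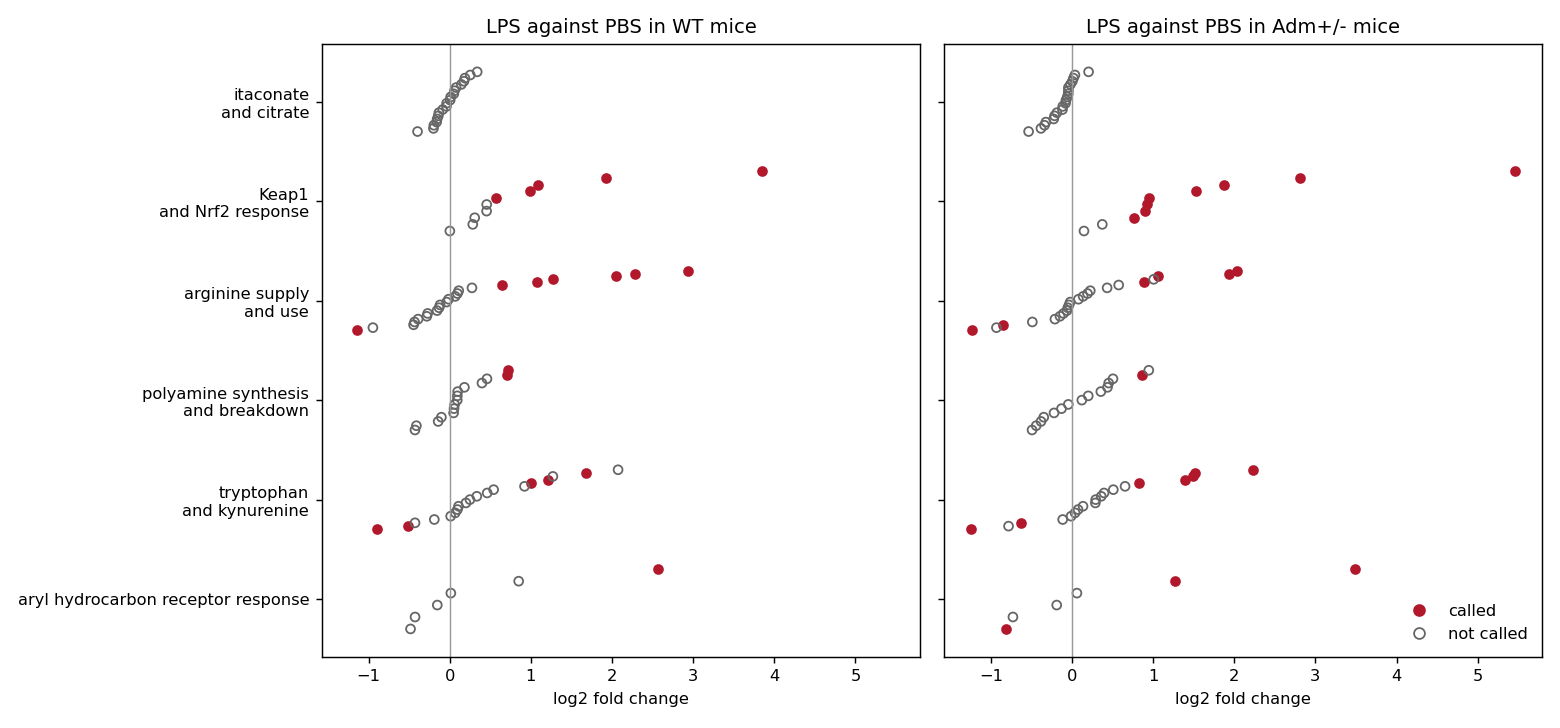
Each point is 1 of the 92 tested pathway genes, placed by its log2 fold change after LPS and grouped by list, with WT mice on the left and *Adm*+/- mice on the right. Filled points are called genes: 0 of 20 in the itaconate and citrate list on either side, and 5 and 8 of 10 in the Keap1 and Nrf2 list.

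Between the genotypes under LPS, 5 of the 92 pathway genes were called, where 2.05% of all tested genes were, and they are named here after their values were seen. *Gclc* (log2 difference 1.57, adjusted p = 0.0272) and *Gch1* (0.92, adjusted p = 0.040) were higher in *Adm*+/- lungs. The call of *Gclc* was lost with glmTreat against 0.5 (adjusted p = 0.0861), with the 6 LPS libraries alone (0.0772) and without any 1 *Adm*+/- LPS library (0.0655 to 0.135). That of *Gch1* was lost with glmTreat (0.306), with all annotated genes (0.0505), with the 6 libraries alone (0.0843) and without *Adm*+/- LPS replicate 1, 2 or 12, *Adm*+/- PBS replicate 6 or 7, WT PBS replicate 3 or 4 or WT LPS replicate 11. Against WT LPS replicate 10 alone, assumed to vary like the other groups, neither was called (1.25 and 0.79). *Nos1* (-2.85, adjusted p = 0.00175), *Gatm* (-1.45, adjusted p = 0.00876) and *Gamt* (-0.98, adjusted p = 0.0151) were lower. The call of *Nos1* was kept in every alternative run, that of *Gatm* was lost without *Adm*+/- LPS replicate 1 (0.0539) or 2 (0.0615), and that of *Gamt* was lost with glmTreat (0.126) and without *Adm*+/- LPS replicate 1 (0.0551), 2 (0.0895) or 12 (0.0862). Skeletal muscle markers were high in all 3 WT LPS libraries, and 13 of 14 tested genes of the muscle list were called lower in *Adm*+/- than in WT LPS lungs, where 1.72% of all tested genes were. The part of muscle in the *Nos1*, *Gatm* and *Gamt* differences was not tested. Under PBS 0 of 92 were called by edgeR, limma-voom or DESeq2, with 1 at an unadjusted p below 0.05 in edgeR. For the difference in LPS response 0 were called by edgeR and limma-voom and 4 (*Gclc*, *Nos1*, *Gatm* and *Gamt*) by DESeq2, which called 1.06% of all tested genes, with 14 of 92 at an unadjusted p below 0.05 in edgeR, beside 1247 of all 15885 tested genes.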

How the data were processed

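Whole lung RNA of 12 mice was sequenced by the authors with a directional kit after removal of ribosomal RNA. Reads were trimmed with Trim Galore, HISAT2 placed them on mm10, and featureCounts assigned them to the genes of a Gencode annotation. The table the authors deposited holds raw whole-number counts for 52550 genes, neither normalized nor filtered. The Gencode release and the strand option are not given in the sources used here, so overlapping genes may share reads. Reads carry no molecular identifiers, and floors of 3 counts cover counting error only.

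In R 4.3.3, the 15885 of 21950 protein-coding genes that passed filterByExpr received TMM factors and went into the quasi-likelihood test of edgeR 4.0.16 (glmQLFit and glmQLFTest), in 1 fit with 1 coefficient per group, after a check on simulated data. Called genes had a Benjamini-Hochberg adjusted p below 0.05 over all tested genes and an absolute log2 fold change above 0.5. No pair of libraries of a group held counts within sampling noise of each other. Positions and exon lengths came from Gencode M21 (99.7% of genes matched). Nearest patterns used log2 CPM (prior count 2) of genes with a mean of at least 1 CPM. The members, gene lists (the squamous and muscle lists among them) and tests were chosen with earlier results of these data known. Named genes were the members, others fixed by name, up to 3 called genes of each list with the smallest p in each LPS comparison, and the nearest patterns, besides those said to be named afterwards. The symbols *Dohh* and *Itgam* did not match 1 protein-coding row each and were not used. Some genes are not reported here. Alternatives were RLE size factors, limma-voom (limma 3.58.1), DESeq2 1.42.0, no filter, all annotated genes, glmTreat, the 6 libraries of a comparison, and leaving out libraries.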

Additional observations from a re-analysis of the deposited data

How the results depend on the processing

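Of the members, those called after LPS in WT mice numbered 1 with glmTreat, with the 6 libraries alone or without WT LPS replicates 9 and 11, and 1 to 2 when 1 library was left out. Those called between the genotypes under LPS numbered 1 with DESeq2 or without WT PBS replicate 5 and *Adm*+/- PBS replicate 6, and 0 to 1 when 1 library was left out. Pathway genes called after LPS in WT mice numbered 7 with glmTreat, 9 with the 6 libraries alone, 9 without WT LPS replicates 9 and 11, and 8 to 20 when 1 library was left out, and in *Adm*+/- mice 16 with glmTreat. Between the genotypes under LPS they numbered 2 with glmTreat, 3 with the 6 libraries alone, 3 without WT LPS replicates 9 and 11, and 1 to 7 when 1 library was left out. For the difference in response DESeq2 called 4. The causes were not tested, except that left-out libraries leave fewer samples. Without WT LPS replicates 9 and 11 that group holds 1 library, assumed to vary like the other groups. These 2 pairs of libraries were chosen for leaving out after the data had been seen.

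The differences of members that changed sign were all uncalled. *Odc1* after LPS in WT mice ranged from -0.23 to 0.14 when 1 library was left out and was 0.31 without WT LPS replicates 9 and 11, and *Acod1* ranged from -3.98 to 1.52 between the genotypes under PBS and from -0.83 to 4.67 for the difference in response. For the difference in response, *Kmo* was 0.0601 without WT LPS replicates 9 and 11 and 0.08 without WT PBS replicate 5 and *Adm*+/- PBS replicate 6. When 1 library was left out, *Ass1* ranged from -0.11 to 0.0132 and *Kmo* from -0.34 to 0.24. Under PBS, *Slc7a2* was 0.00927 with limma-voom and ranged from -0.25 to 0.19, *Ass1* from -0.0893 to 0.00984, *Odc1* from -0.0619 to 0.19 and *Kmo* from -0.0240 to 0.55. RLE size factors, the unfiltered genes and all annotated genes changed no call of a member. No paired analysis was possible because the replicate numbers are library numbers that no 2 groups share. With 3 libraries a group, and counts of at most 20 for *Ido1*, small differences were not detectable.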
